A study of Rattus norvegicus with 30 samples.

Results

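Dual specificity phosphatases remove phosphate from both the threonine and the tyrosine of the activation loop of MAP kinases and so switch these kinases off. Several of their genes are transcribed in response to the same kinases, so that the enzymes act as a negative feedback on ERK, JNK and p38 signalling, and in hippocampal neurons some of them are immediate early genes of strong activity. The family divides by location and substrate: Dusp1 and Dusp4 are nuclear and act on ERK, JNK and p38, Dusp5 is nuclear and selective for ERK, and Dusp6 and Dusp7 are cytoplasmic and selective for ERK.

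The members were all probe sets whose platform annotation gave a single gene symbol starting with Dusp. There were 8 such probe sets of 8740 that are not array controls, and they stood for 5 of 4736 genes, with 3 probe sets for Dusp1, 2 for Dusp6 and 1 each for Dusp4, Dusp5 and Dusp7. They were measured in total RNA of rat hippocampus on 30 Affymetrix arrays, from rats given kainate, a glutamate receptor agonist used to provoke seizures, or phosphate-buffered saline (PBS), and killed 1, 6, 24, 72 or 240 h afterwards, with 3 arrays in each of the 10 groups. Strain, age, sex, dose and route were not given in the sources used here, and neither was whether each array came from 1 animal, so the p-values measure the spread between arrays.

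The deposited signals had a trimmed mean between 150.1 and 150.2 on every array, and the number of arrays limits the precision. Whatever the treatment, the 6 and 72 h arrays formed one set and the 1, 24 and 240 h arrays another along the leading axis of variation (16.2% of the variance). Each kainate group was therefore set only against the PBS arrays of its own time, and a contrast between times compares the kainate-minus-PBS differences. Neighbouring times always lie in different sets. A difference between the sets in the size of the kainate effect therefore cannot be told apart from a change with time. Of the 15 neuron markers listed, 11 were on the array and 10 passed the filter on low values. Since whole hippocampus was measured, fewer cells of a type and less RNA per cell cannot be told apart.

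Promoters of the 3 members with changed signal are shown because the letters near the gene start differ between them, while the signals of all 3 genes moved after kainate. The sequences are RefSeq's, of build GRCr8, and run 5′ to 3′ from 250 bases before to 50 bases after the start that the promoter table uses, all on the plus strand. For Dusp1, Dusp5 and Dusp7 this is the first annotated base of the gene, but for Dusp6 it lies 102 bases downstream of that base, so that the Dusp6 window holds only 148 bases before it. Entries matched 4 of the 5 genes by gene identifier, all except Dusp4. Dusp1 lies at chr10:17184603-17184902, Dusp5 at chr1:262543524-262543823 and Dusp6 at chr7:35979354-35979653. Capitals mark every match, on either strand, to a cyclic AMP response element (CRE, TGACGTCA), its core (TGACG, which overlaps the full CRE), the AP-1 site (TGANTCA), the site of the Egr factors (GCGNGGGCG), the CArG box bound by serum response factor, and the TATA box (TATAAA).
Dusp1: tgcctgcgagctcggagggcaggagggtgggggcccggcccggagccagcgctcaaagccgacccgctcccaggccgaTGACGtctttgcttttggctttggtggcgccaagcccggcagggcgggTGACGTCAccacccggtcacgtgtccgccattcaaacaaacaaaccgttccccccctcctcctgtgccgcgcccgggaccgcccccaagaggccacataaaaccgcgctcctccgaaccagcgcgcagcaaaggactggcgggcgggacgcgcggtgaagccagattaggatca
Dusp5: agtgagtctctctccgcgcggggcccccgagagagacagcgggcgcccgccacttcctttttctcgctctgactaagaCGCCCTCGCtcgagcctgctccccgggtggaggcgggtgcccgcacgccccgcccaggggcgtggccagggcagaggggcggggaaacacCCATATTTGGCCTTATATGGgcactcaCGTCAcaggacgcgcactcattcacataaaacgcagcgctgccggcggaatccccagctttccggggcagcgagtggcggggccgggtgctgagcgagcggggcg
Dusp6: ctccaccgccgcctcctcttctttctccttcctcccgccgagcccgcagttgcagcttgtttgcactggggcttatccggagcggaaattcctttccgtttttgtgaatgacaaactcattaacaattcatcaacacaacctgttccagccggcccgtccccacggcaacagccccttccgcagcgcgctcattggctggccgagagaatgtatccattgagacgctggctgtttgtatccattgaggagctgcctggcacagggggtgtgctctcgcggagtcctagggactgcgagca

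The Dusp1 promoter held a full CRE, from 124 to 117 bases before the start, and a separate CRE core from 172 to 168 bases before it. A full CRE was present in 1.91% of 27457 promoters of the same length in the table, and a CRE core in 22.0%. The Dusp5 promoter held 2 CArG boxes directly after each other, from 82 to 73 and from 72 to 63 bases before the start, where 1.64% of promoters held at least 1. It also held a CRE core from 55 to 51 bases and an Egr site from 172 to 164 bases before the start. These were present in 22.0% and 5.29% of promoters. In the Dusp6 window, placed as stated, and in that of Dusp7, none of the 6 motifs was found, and an AP-1 site (7.33% of promoters) or a TATA box (14.3%) was found in none of the 4. The share of G and C was 68.0% for Dusp1, 69.0% for Dusp5, 57.7% for Dusp6 and 81.0% for Dusp7, against a median of 52.3% over all promoters. Dusp1 and Dusp5 thus stood at percentiles 88.7 and 90.3. The shares of promoters with a motif are over all promoters and were not matched for G and C. How rare these matches are among promoters as rich in G and C was not tested. A match describes letters in this window and is not a bound site.

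**Figure D1:**
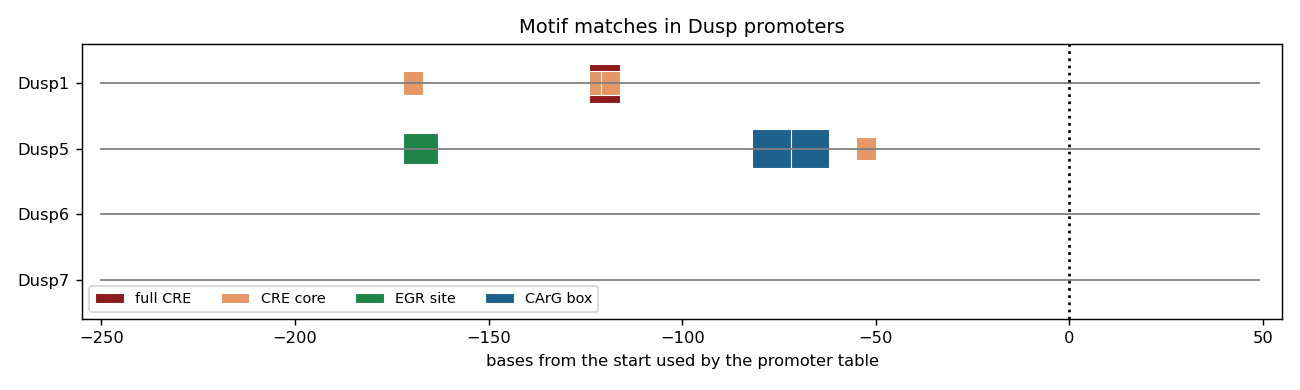
Motif matches (coloured boxes) along the promoters of 4 Dusp genes, with the distance in bases from the start used by the promoter table on the x axis and that start as a dotted line, which for Dusp6 lies 102 bases downstream of the gene's first annotated base. Dusp1 has a full CRE from 124 to 117 bases before the start, Dusp5 has 2 neighbouring CArG boxes from 82 to 63 bases before it, and Dusp6 and Dusp7 have no match within their windows.

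Dusp1, Dusp5 and Dusp6 rose within the first 6 h after kainate and none passed as higher at 24 h, when Dusp6 was lower. Dusp1 rose 7.77- to 8.37-fold at 1 h by its 3 probe sets, and 10.6-fold at 6 h by U02553cds_s_at, the only one with no array of that time at the floor of low signals, while Dusp5 and Dusp6 rose 1.68- to 2.01-fold at 6 h. Dusp7 did not pass at any time, and Dusp4 was too low to be tested. Testing required a signal above 35.2 on at least 3 arrays, which 7 of the 8 probe sets had, and a probe set passed when the limma p-value, adjusted by the Benjamini-Hochberg method over all 6303 tested probe sets, was under 0.05. The 3 Dusp1 probe sets were above that signal also on 8, 9 and 10 of the 24 arrays other than kainate at 1 and 6 h, so none was tested through its high groups alone.

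**Figure D2:**
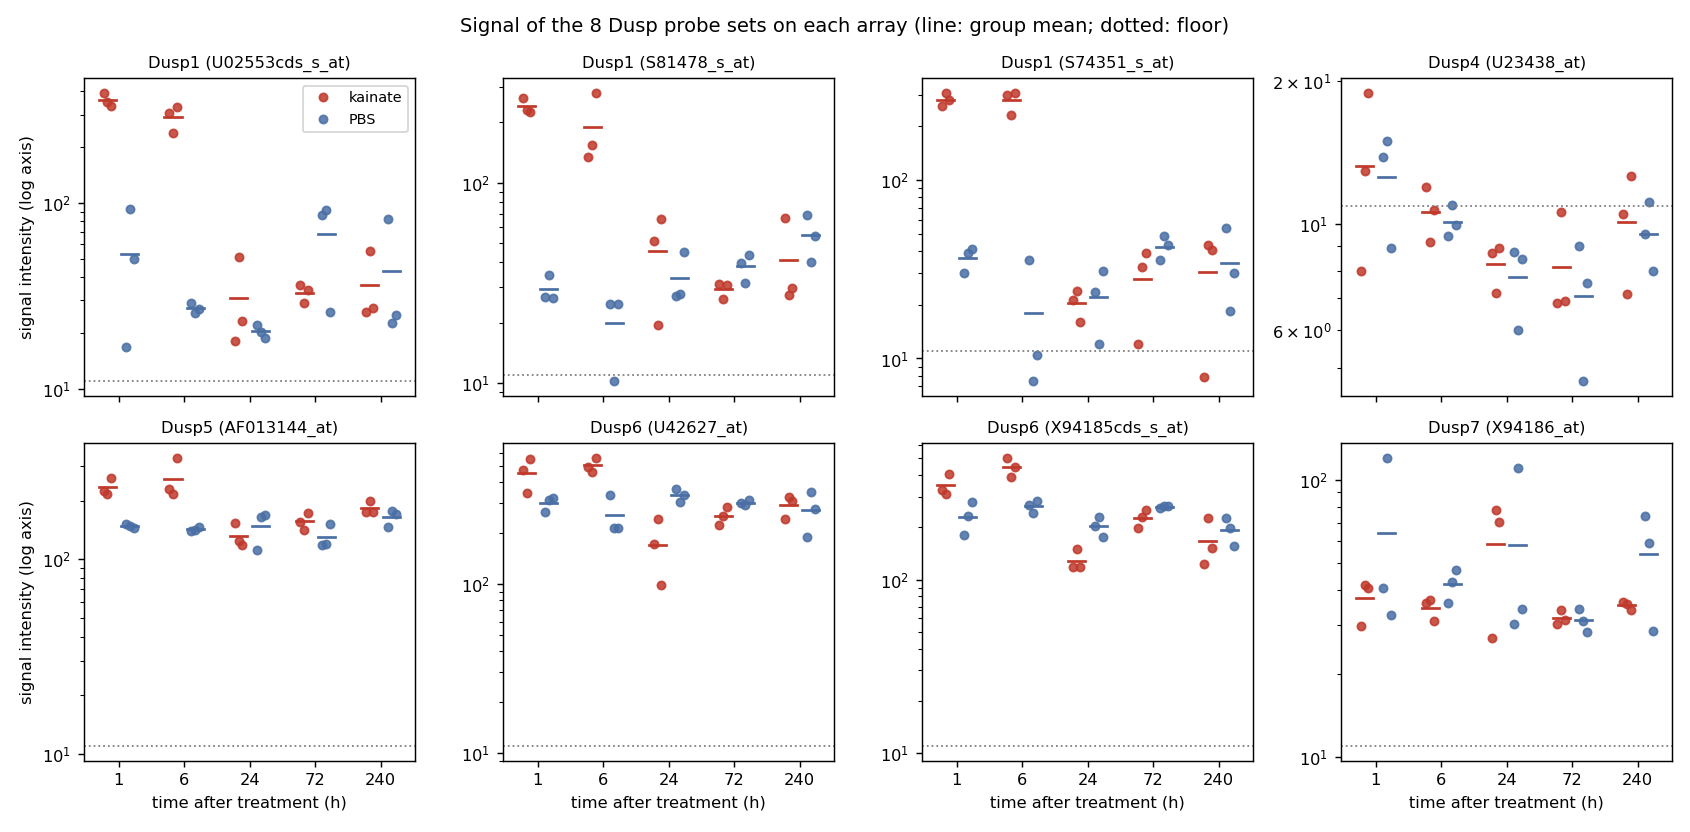
Signal intensity (log axis) of the 8 Dusp probe sets on each of the 30 arrays, by time after treatment, with kainate in red left of PBS in blue, a line at each group mean and the floor of 10.95 dotted. The 3 kainate arrays at 1 h and at 6 h lie above all PBS arrays of their time for the 3 Dusp1 probe sets, Dusp5 and both Dusp6 probe sets, and the kainate arrays at 24 h lie below theirs for both Dusp6 probe sets.

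At 1 h the Dusp1 probe set with the highest mean level, U02553cds_s_at, had signals of 393, 349.8 and 333 on the kainate arrays, against 16.7, 92.9 and 50.3 on the PBS arrays. The groups were far apart, but the PBS arrays themselves spanned more than a 5-fold range. A second probe set, S81478_s_at, gave 264, 230.0 and 226 on the kainate arrays, against 27.0, 34.7 and 26.7 on the PBS arrays. For the third, S74351_s_at, kainate arrays read 260.3, 306 and 281 and PBS arrays 30.1, 38.9 and 40.9. In all 3 the kainate arrays lay within a narrow band that no PBS array reached. The log2 changes were 3.07 ± 0.51, 3.03 ± 0.39 and 2.96 ± 0.50 (SE, n = 3 arrays per group), or 8.37-fold, 8.19-fold and 7.77-fold, with limma adjusted p of 0.000465, 9.85e-06 and 0.000505. Their ranks by log2 change among all tested probe sets were 4, 6 and 7. Without PBS replicate 1, the lowest control, the log2 change of U02553cds_s_at was 2.39.

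At 6 h the kainate arrays of U02553cds_s_at had signals of 306, 239.8 and 328, against 29.1, 25.5 and 26.9 on the PBS arrays. S81478_s_at had 133, 153 and 280.0 on the kainate arrays, against 24.9, 10.2 and 24.8 on the PBS arrays, the lowest of which lay at the floor. S74351_s_at had 300.1, 232 and 309 on the kainate arrays, against 35.7, 7.44 and 10.5 on the PBS arrays, of which 2 lay at the floor, a signal of 10.95 below which values were not ordered. The sizes for the last 2 rest partly on the floor and stand for no exact fold: their log2 changes were 3.24 and 4.10 with it, and 2.47 and 3.21 on the log2(signal + 16) scale with no floor. U02553cds_s_at, with no array at the floor, was 10.6-fold higher (log2 change 3.41 ± 0.51 SE, adjusted p = 3.14e-05), and its value on the log2(signal + 16) scale was 2.82. The 95% intervals of the log2 change overlapped among the 3 probe sets, at 2.36 to 4.46, 2.43 to 4.05 and 3.08 to 5.12. The suffix s_at marks probe sets that may detect more than 1 transcript. Averaged over the 3 probe sets, a summary added after the data were seen, Dusp1 was 8.10-fold higher at 1 h (adjusted p = 1.71e-07), and it also passed at 6 h (adjusted p = 2.34e-09).

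From 24 h on no Dusp1 probe set passed. U02553cds_s_at read 18.1, 51.5 and 23.1 on the kainate arrays at 24 h, against 22.1, 20.3 and 18.9 on the PBS arrays. The groups overlap, and the log2 change of 0.45 ± 0.51 (SE) did not pass (adjusted p = 0.622). At 72 h the kainate arrays had 36.0, 28.9 and 33.8 and the PBS arrays 86.8, 92.3 and 26.0, a log2 difference of −0.86 with a 95% interval from −1.90 to 0.19. The 3 probe sets had values of −0.86, −0.37 and −0.76 at 72 h, and only the kainate arrays of S81478_s_at all lay below their controls, at 31.3, 26.2 and 31.0 against 39.9, 31.7 and 43.4. None of these differences passed (adjusted p from 0.859 to 0.948). At 240 h the log2 values were −0.09, −0.49 and −0.22, with groups that overlap. Over 24, 72 and 240 h together the kainate arrays of U02553cds_s_at ranged from 18.1 to 55.4 with a median of 28.9, and the PBS arrays of all times from 16.7 to 92.9 with a median of 26.0.

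Dusp5, the nuclear ERK phosphatase, had signals of 225, 217 and 262 on the kainate arrays at 1 h, against 151, 147 and 145 on the PBS arrays. All 3 kainate arrays were higher and the controls lay close together, but the 1.58-fold difference missed the threshold (log2 change 0.66 ± 0.17 SE, adjusted p = 0.0549). It passed under 3 of 9 alternatives, among them quantile normalization (adjusted p = 0.0497), and the adjusted p reached 0.371 with the arrays of 1 h alone. Without any 1 of the 6 arrays of that time it did not pass (adjusted p from 0.0894 to 0.145). At 6 h the kainate arrays had 229, 217 and 331, against 140.4, 141 and 147 on the PBS arrays. Here Dusp5 rose 1.78-fold (log2 change 0.83 ± 0.17 SE, adjusted p = 0.00217), and leaving out any 1 array of that time kept it under the threshold (adjusted p up to 0.0495). At 24 h its kainate arrays had 153, 124 and 118, against 112, 164 and 168 on the PBS arrays, with overlapping groups. The log2 values at 24, 72 and 240 h were −0.15, 0.27 and 0.15, and none passed, with 95% intervals inside −0.50 to 0.62.

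Dusp6, the cytoplasmic ERK phosphatase, had 2 probe sets. U42627_at read 475, 347 and 549 on the kainate arrays at 1 h, against 268, 317 and 323 on the PBS arrays. X94185cds_s_at read 329, 313 and 404 on the kainate arrays, against 179.6, 231 and 281 on the PBS arrays. In both the kainate arrays were all higher, but the log2 changes of 0.58 ± 0.24 and 0.61 ± 0.19 (SE) did not pass (adjusted p = 0.389 and 0.168).

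At 6 h U42627_at had 493, 459.6 and 558 on the kainate arrays, against 336, 215 and 215.0 on the PBS arrays. It rose 2.01-fold (log2 change 1.01 ± 0.24 SE, adjusted p = 0.0102). X94185cds_s_at, with 503, 389 and 444 on the kainate arrays and 268, 241 and 284 on the PBS arrays, rose 1.68-fold (log2 change 0.75 ± 0.19 SE, adjusted p = 0.0190). No kainate array of either probe set came down to a control. When 1 of the 6 arrays was left out, each probe set passed in 3 of 6 cases. The adjusted p without PBS replicate 2, PBS replicate 3 or kainate replicate 3 was 0.0795, 0.0765 and 0.0714 for U42627_at. For X94185cds_s_at it was 0.106 without PBS replicate 2, 0.118 without kainate replicate 1 and 0.0714 without kainate replicate 3.

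At 24 h Dusp6 lay below its controls. U42627_at had 172, 242 and 99.0 on the kainate arrays, against 368, 307 and 335 on the PBS arrays. Kainate replicate 3 was the lowest of the 30 arrays, and the 3 kainate arrays differed among themselves by more than a factor of 2. The probe set was 2.10-fold lower (log2 change −1.07 ± 0.24 SE, adjusted p = 0.00460). X94185cds_s_at had 118, 149.998 and 119 on the kainate arrays, against 204, 229 and 176 on the PBS arrays, and was 1.58-fold lower (log2 change −0.66 ± 0.19 SE, adjusted p = 0.0257). When 1 array of 24 h was left out, U42627_at passed in 5 of 6 cases and X94185cds_s_at in 2 of 6. U42627_at did not pass without kainate replicate 3 (log2 change −0.72, adjusted p = 0.0616). The adjusted p of X94185cds_s_at was 0.0607 without PBS replicate 1, 0.101 without PBS replicate 2, 0.0830 without kainate replicate 1 and 0.106 without kainate replicate 3. It was 0.0608 with quantile normalization and 0.0915 when only the 1, 24 and 240 h arrays were fitted. Fitted with the 6 arrays of 24 h alone, the adjusted p was 0.0697 for U42627_at and 0.0752 for X94185cds_s_at. By 72 h the kainate arrays of U42627_at, at 224, 252 and 286, still lay just under the PBS arrays, at 302, 292 and 313, and those of X94185cds_s_at under theirs too. The log2 differences of −0.26 and −0.23 did not pass (adjusted p = 0.946 and 0.933). At 240 h the groups overlapped, with log2 values of 0.14 and −0.25.

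Markers of several cell types changed at 24 h, when 6.3% of all tested probe sets were lower and 5.03% higher. Of the neuron markers 4 of 10 tested were lower and 0 higher, and their summed signal was 7243 to 7979 on the kainate arrays and 8481 to 9236 on the PBS arrays. Camk2a, a kinase of synapses, and Nefh, a neurofilament chain, had the largest changes of the list, log2 −1.89 and −0.74. The Camk2a size rests partly on the floor, since its kainate arrays had a mean of 17.8 and 1 lay at the floor. Map2, Grin1 and Syp had positive values, 0.36, 0.31 and 0.09, which did not pass. Astrocyte markers were lower in 2 of 8 cases, with sums of 6282 to 7072 on the kainate arrays and 7787 to 8152 on the PBS arrays. Microglia and macrophage markers were higher in 3 of 9 cases and lower in 0, with sums of 1017 to 1299 on the kainate arrays and 540.1 to 666 on the PBS arrays. Among the 3, C1qb averaged 426 against 125. The size for Cd53, also higher, rests partly on the floor, since its PBS arrays had a mean of 13.8 and 1 lay at the floor. Cx3cr1 and Ptprc had negative values, −0.07 and −0.37, which did not pass. Oligodendrocyte markers passed in 0 of 6 cases, but their sums of 6101 to 6636 on the kainate arrays lay below those of 7506 to 7662 on the PBS arrays. Of 5 endothelial markers 1 was higher, the glucose transporter Slc2a1 (log2 change 0.56, adjusted p = 0.0236), and of the choroid plexus and blood markers, 2 each, 0 passed. The part of these cell types in the Dusp6 result was not tested. No marker on the 7 cell type lists passed at 1 h, and at 6 h the microglia marker C1qb and Slc2a1 were higher. The summed neuron signal still lay above that of the PBS arrays, at 9420 to 9782 against 8394 to 8776 at 1 h. At 6 h it was 9259 to 9716 against 8409 to 9107. Oligodendrocyte sums were lower at 6 h (6346 to 6906 against 7012 to 7189) and endothelial sums higher (693 to 762 against 381 to 445). Bright probe sets weigh most in such sums, and Slc2a1 alone averaged 551 against 229. The median log2 change at 6 h was −0.01 for the oligodendrocyte list and 0.09 for the endothelial list, so the sums do not show a shift of either list as a whole. Other sums overlapped at 1 and 6 h. The part of these cell types in the Dusp1 rise was not tested.

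Dusp7, the other cytoplasmic ERK phosphatase, was measured near the filter on low values. Its lowest, median and highest signals were 27.0, 35.6 and 78.0 on the 15 kainate arrays and 28.2, 35.9 and 120 on the 15 PBS arrays. The highest control was PBS replicate 2 of 1 h at 119.8, where the other 2 controls had 40.6 and 32.5. At 6 h it had 35.9, 36.7 and 30.9 on the kainate arrays, against 35.9, 42.9 and 47.4 on the PBS arrays. The log2 differences were −0.55, −0.28, 0.13, 0.04 and −0.50 at 1, 6, 24, 72 and 240 h, each with an SE of 0.45, and none passed (adjusted p from 0.703 to 0.998). The 95% interval at 6 h, −1.20 to 0.64, does not show that Dusp7 was unaltered. Dusp4, the nuclear relative of Dusp1, had signals from 6.83 to 18.9 on the kainate arrays and from 4.69 to 14.9 on the PBS arrays. It was at the floor on 22 of 30 arrays and above the filter on 0, so no change of it was tested.

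**Figure D3:**
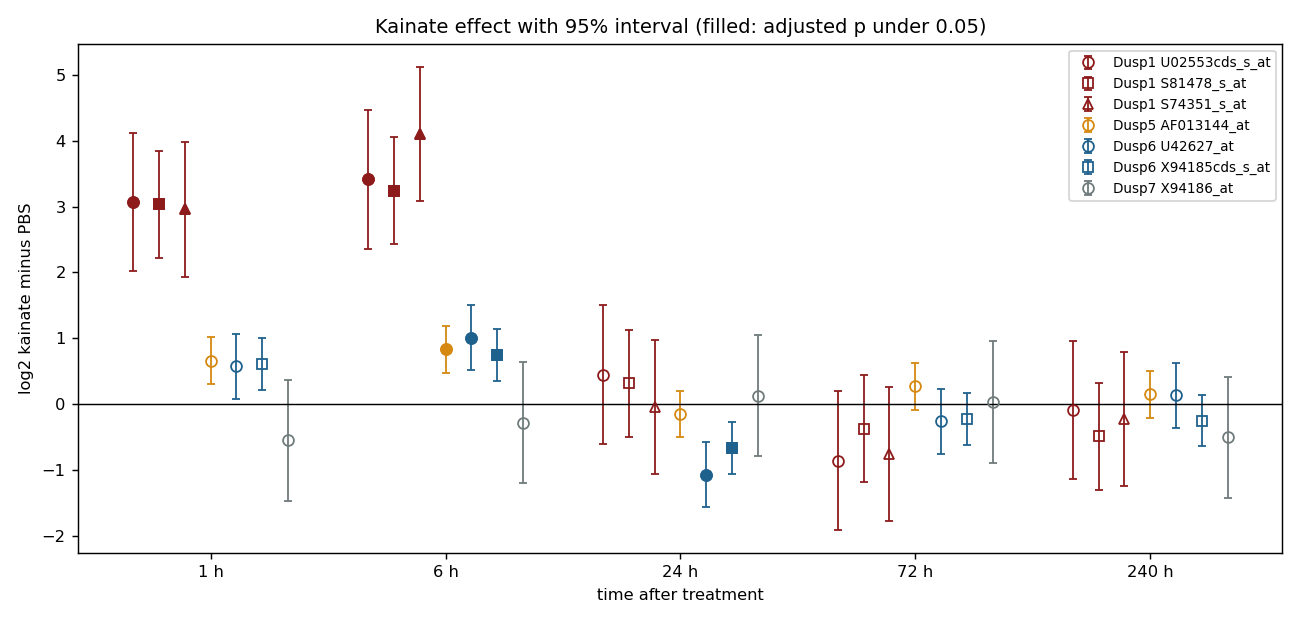
Log2 kainate minus PBS (y axis) of the 7 tested Dusp probe sets at each time, with the 95% interval of the limma fit and filled symbols where the adjusted p was under 0.05. The 3 Dusp1 probe sets stand near 3 at 1 h and between 3.24 and 4.10 at 6 h, Dusp5 and Dusp6 pass at 6 h between 0.75 and 1.01, and both Dusp6 probe sets pass below 0 at 24 h.

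Counted over probe sets, 3 of 7 tested members were higher at 1 h and 6 of 7 at 6 h, where 0.904% and 3.24% of all tested probe sets were higher. None was lower at either time, against 0.19% and 0.698%. At 24 h 2 of 7 were lower, against 6.3% of all, and 0 were higher, against 5.03%. At 72 and 240 h 0 of 7 passed, against 0.0476% of all at each time, and 0 of 7 had an unadjusted p under 0.05. Several of these probe sets share a gene, so they are not independent. Kainate arrays all lay above the controls for 6 of 7 members at 1 h and at 6 h, against 4.73% and 9.65% of all tested probe sets, and below them for 0 of 7, against 5.55% and 18%. They all lay below the controls for 2 of 7 at 24 h, against 15.6%, and for 3 of 7 at 72 h, against 12%. Members all above were 0 of 7 at 24, 72 and 240 h, against 12.5%, 10.1% and 9.58%, and 0 of 7 lay all below at 240 h, against 4.89%. The median log2 change of the 7 was 0.66, 1.01, −0.04, −0.26 and −0.22 at the 5 times, and that of all tested probe sets −0.04, −0.11, −0.05, −0.04 and 0.03.

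The kainate effect differed between times for 6 of the 7 tested members, all except Dusp7, where 6.62% of all tested probe sets did. The F test gave an adjusted p of 5.65e-06 to 0.000213 for the 3 Dusp1 probe sets, 0.0420 for Dusp5 and 0.00127 and 0.00229 for the 2 of Dusp6. For Dusp5 it was 0.0501 with no intensity trend and 0.0585 with array weights, and when 1 of the 30 arrays was left out Dusp5 passed in 11 of 30 cases (adjusted p up to 0.0976). The other 5 probe sets passed in all of these. Between neighbouring times, the effect at 24 h minus that at 6 h passed for the same 6 probe sets, against 5.24% of all. Its log2 size was −2.96 to −4.14 for Dusp1, −0.98 for Dusp5, and −2.08 and −1.41 for Dusp6. Without kainate replicate 3 of 6 h the Dusp5 value did not pass (adjusted p = 0.0650). The effect at 6 h minus that at 1 h passed for 0 of 7, although 1.09% of all tested probe sets did. It was 0.35 ± 0.72, 0.21 ± 0.56 and 1.14 ± 0.70 (SE) for Dusp1, 0.17 ± 0.24 for Dusp5 and 0.43 ± 0.34 and 0.14 ± 0.27 for Dusp6. Dusp5 and Dusp6 passed at 6 h and not at 1 h, but a difference between these times was not shown. Later steps, from 24 to 72 h and from 72 to 240 h, also passed for 0 of 7, against 0.746% and 0% of all.

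The PBS arrays on their own gave the level without kainate. Over the 15 PBS arrays Dusp5 ranged from 112 to 177 with a median of 147, and U42627_at of Dusp6 from 189 to 368 with a median of 307. The Dusp1 probe sets varied more, from 16.7 to 92.9, from 10.2 to 69.0 and from 7.44 to 54.3. Differences among the 5 PBS groups passed for 0 of 7 members by the limma F test, against 16.9% of all tested probe sets, and 1 of 7 had an unadjusted p under 0.05. This was S81478_s_at of Dusp1, with a limma adjusted p of 0.0668.

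Genes of the MAP kinase pathway were taken from 5 lists by role, with the probe set of highest mean level for each gene. Of 12 tested genes of the ERK cascade, 0 passed at 1 h and 1 at 6 h, Mapk6, an atypical MAP kinase, 1.53-fold higher (log2 change 0.62 ± 0.18 SE, adjusted p = 0.0452). Mapk6 had a signal of 321 ± 13.8 (SD) on the kainate arrays and 213 ± 47.1 on the PBS arrays. The median log2 change of the list was −0.09 at 1 h and −0.06 at 6 h, close to that of all probe sets. Of 12 genes of the JNK and p38 cascades, 1 was lower at 6 h, the JNK scaffold Mapk8ip1, with 189 ± 49.3 (SD) on the kainate arrays and 359 ± 8.18 on the PBS arrays (log2 change −0.96 ± 0.22 SE, adjusted p = 0.00630). Of all tested probe sets, 0.904% were higher and 0.19% lower at 1 h, and 3.24% and 0.698% at 6 h. Counts of 0 or 1 of 12 do not set these 2 lists apart from those shares.

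Among other inhibitors of the cascade, Errfi1 alone passed at 1 or 6 h. Of 10 tested phosphatases outside the Dusp family that act on MAP kinases, 0 passed at 1 and 6 h. They include Ptpn5, the striatum-enriched tyrosine phosphatase, with log2 values of 0.22 and −0.07, and subunits of protein phosphatase 2A. At 24 h 1 passed, the catalytic subunit Ppp2cb, 1.33-fold higher (adjusted p = 0.0493). Of all tested probe sets 0.904%, 3.24% and 5.03% were higher at 1, 6 and 24 h. Counts of 0 or 1 of 10 do not set this list apart from those shares. Of 8 tested feedback inhibitors, 1 passed at 1 h and at 6 h, Errfi1, which blocks the EGF receptor and had 516 ± 68.7 (SD) on the kainate arrays at 6 h and 64.4 ± 19.5 on the PBS arrays. Spry1, a Sprouty inhibitor of receptor tyrosine kinase signalling, had log2 values of −0.37 and 0.18 at 1 and 6 h. Ptpn5 and Spry1 are named for their roles, after their values were seen.

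Of 17 tested transcription factors downstream of MAP kinases, 6 were higher at 1 h and 11 at 6 h, against 0.904% and 3.24% of all tested probe sets. The others did not pass, among them Creb1 and Jund, with log2 values of −0.47 and −0.04 at 1 h, named after their values were seen. Fosl1, 1 of the 11, had log2 values of 0.02 at 1 h and 2.43 at 6 h. Its groups did not differ beyond rounding at 24, 72 and 240 h. Fosl1 may thus have been tested only through its high kainate arrays of 6 h, and its count there is no independent result. The filter was not checked in this way for the genes of the lists. At 24 h Egr1, Egr4 and Nr4a1 were lower and Stat3 higher. Egr2, a zinc finger factor, and Nr4a1, an orphan nuclear receptor, had the largest changes of the list, 10.2-fold and 8.34-fold at 1 h. The median log2 change of this list was 0.71 at 1 h, 1.28 at 6 h and −0.28 at 24 h. No gene of the 5 lists passed at 72 or 240 h.

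**Figure D4:**
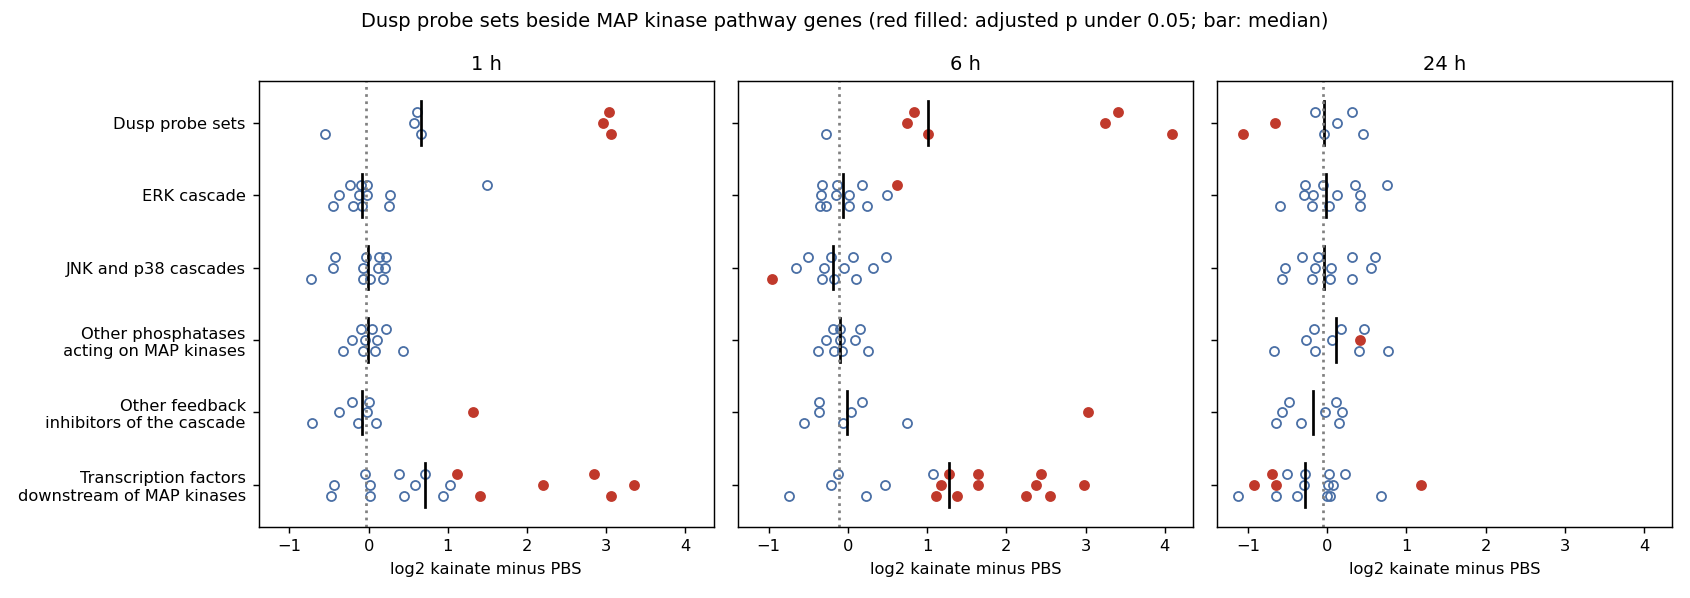
Log2 kainate minus PBS (x axis) at 1, 6 and 24 h of the 7 tested Dusp probe sets and of the tested genes of 5 MAP kinase pathway lists, each point a probe set, filled red where the adjusted p was under 0.05, with a bar at the list median and a dotted line at the median of all tested probe sets. At 6 h 6 of 7 Dusp probe sets and 11 of 17 transcription factors are filled to the right, against 1 of 12 ERK cascade genes and 0 of 10 other phosphatases. Of all tested probe sets 3.24% were higher at that time. Fosl1, 1 of the 11, may have been tested only through its high kainate arrays.

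The genes whose pattern was most like that of each member were found by Pearson's r over the 30 arrays, after the mean of the PBS arrays of the same time had been subtracted, among 3701 other genes. The points share arrays and treatment groups, so the values are a description. For Dusp1 they were the AP-1 subunit Fos (r = 0.885), the EGF receptor inhibitor Errfi1 (0.880), the orphan nuclear receptor Nr4a1 (0.872), Ifrd1 (0.870) and the synaptic protein Arc (0.862). For Dusp5 they were Fos (0.832), Jun (0.825), Arc (0.817), Atf3 (0.798) and Junb (0.796), 4 of which encode transcription factors of the AP-1 and ATF families. For Dusp6 they were Idi1, an enzyme of isoprenoid and cholesterol synthesis (0.925), Nrn1, which encodes neuritin (0.903), the cannabinoid receptor Cnr1 (0.876), the lactate dehydrogenase subunit Ldhb (0.870) and Pnrc1 (0.853). Since these 5 were chosen on the same arrays, their own values only describe the shared pattern. Idi1 had log2 values of 1.16 at 6 h and −0.83 at 24 h, and Nrn1 0.66 and −0.66. Cnr1, Ldhb and Pnrc1 had 0.34, 0.32 and 0.48 at 6 h, and none of these passed. At 24 h they had −0.77, −0.75 and −0.42, of which that of Pnrc1 did not pass. The highest r for Dusp7 was 0.624. Among the members, r was 0.853 to 0.900 between Dusp1 probe sets and 0.819 between those of Dusp6. Between genes it was 0.520 to 0.793 for Dusp1 and Dusp6, 0.641 to 0.771 for Dusp1 and Dusp5, and 0.706 and 0.685 for Dusp5 and the 2 probe sets of Dusp6.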

How the data were processed

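The authors deposited linear signal intensities, 1 for each array and probe set, and the sources used here do not say how these were derived from the scans. The arrays were scaled to a common mean, trimmed by 2% at each end, floored at the 20th percentile (signal 10.95) and turned into log2. Probe sets above the 40th percentile (35.2) on at least 3 of 30 arrays were tested, 6303 in all, without the 59 controls. Gene symbols came from the platform annotation, updated by gene identifier. limma 3.58.1 in R 4.3.3 fitted a mean per group over all 30 arrays, with the variance trended on intensity and p-values adjusted by Benjamini-Hochberg over all tested probe sets (threshold 0.05); the residual degrees of freedom were 20. The procedure was run on simulated data with independent noise and added log2 changes of 2 in size. These are larger than the changes of Dusp5 and Dusp6, so the run does not show how well smaller changes are found. Figures used Python 3.11.15, pandas 2.3.3 and matplotlib 3.10.9. A gene's probe set of highest mean log2 value stood for it in the lists. All Dusp probe sets are named, with the 2 largest passing members of each pathway list and the 5 most similar genes. The members and lists were chosen with earlier results of these data known. Alternatives were other normalizations, floors, filters and weights, fewer arrays, a block and left-out arrays.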

Additional observations from a re-analysis of the deposited data

Results flagged for a closer look

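For 6 of the 7 tested Dusp probe sets the kainate effect differed between times by the limma F test over the 5 times. The adjusted p was 0.000213 for U02553cds_s_at, 5.65e-06 for S81478_s_at and 1.79e-05 for S74351_s_at, the probe sets of Dusp1. It was 0.0420 for AF013144_at of Dusp5, and 0.00127 for U42627_at and 0.00229 for X94185cds_s_at of Dusp6. The Dusp1 effect was near a log2 value of 3 or above at 1 and 6 h and between −0.86 and 0.45 from 24 h on. The Dusp6 effect was positive at 6 h and negative at 24 h, and both of these passed. With 1 array left out Dusp5 passed the F test in 11 of 30 cases, and with no intensity trend or with array weights it did not pass (adjusted p = 0.0501 and 0.0585).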

How the results depend on the processing

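The rises of the 3 Dusp1 probe sets at 1 and 6 h and of Dusp5 at 6 h passed under every alternative run and without any 1 array of their time. Sizes of Dusp1 moved: with log2(signal + 16) the 6 h values were 2.82, 2.47 and 3.21, against 3.41, 3.24 and 4.10, and without PBS replicate 1 U02553cds_s_at at 1 h was 2.39, against 3.07. Dusp5 at 1 h (log2 change 0.66) missed the threshold in the reported fit and in 6 of 9 alternatives (adjusted p up to 0.371). It passed with quantile normalization (0.65), with no filter on low values (0.66) and with the replicate block (0.66, adjusted p = 0.0467). The Dusp6 fall at 24 h (U42627_at) did not pass with the arrays of the time alone (−1.07), and without 1 array it ranged from −1.37 to −0.72. Its rise at 6 h ranged from 0.90 to 1.22 without 1 array. The number of members passing at 24 h, 2 in the reported fit, was 1 with quantile normalization, 0 with the arrays of the time alone, 1 with the arrays of 1, 24 and 240 h alone, and 0 to 2 without 1 array. At 6 h it was 4 to 6 without 1 array. The number whose effect differed between times, 6 in the reported fit, was 5 with no intensity trend, 5 with array weights and 5 to 6 without 1 array, Dusp5 being the one lost. The number differing among PBS times, 0 in the reported fit, was 1 with array weights, 1 with the replicate block, and 0 to 1 without 1 array. The cause of these shifts was not tested. Some small values that never passed changed sign. With array weights these were S74351_s_at (0.013) and Dusp7 (−0.14) at 24 h and Dusp7 at 72 h (−0.0074), and averaged over its probe sets Dusp6 at 240 h was −0.056, an alternative chosen after seeing the data. Without 1 array Dusp7 ranged from −0.92 to 0.026 at 1 h, −0.21 to 0.72 at 24 h and −0.033 to 0.10 at 72 h. Dusp1 at 24 h ranged from −0.036 to 0.85 (S81478_s_at) and −0.43 to 0.25 (S74351_s_at). At 240 h the ranges were −0.45 to 0.50 (U02553cds_s_at), −0.60 to 0.42 (S74351_s_at) and −0.10 to 0.34 (Dusp6, U42627_at). Same-numbered kainate and PBS arrays deviated together with r of −0.07 to 0.17, which does not settle whether they were paired. The block was shared by all groups and does not model pairs within a time. It changed no other call. With array weights 633 of all tested probe sets passed at 6 h and 153 at 72 h, against 248 and 3. With the arrays of the same set alone 481 passed at 6 h and 343, against 714, at 24 h. With the arrays of the time alone 31, against 69, passed at 1 h and 256 at 24 h, and with the same set alone 43 at 1 h. At 72 and 240 h the alternatives gave 0 to 153 and 0 to 13. Without 1 array the counts were 51 to 96 at 1 h, 163 to 279 at 6 h, 336 to 715 at 24 h (the lowest without kainate replicate 3), 0 to 1 at 72 h and 0 to 19 at 240 h. With 3 arrays in a group, intervals of low probe sets such as Dusp7 stay wide, and Dusp4 is too dim to be measured.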
